A study of Mus musculus with 4 samples.

Results

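Aminoacyl-tRNA synthetases are the enzymes that join each amino acid to its transfer RNA (tRNA), the step that feeds amino acids into translation. The genes described here were all protein-coding genes of the count table whose symbol follows the naming pattern of this family, such as Aars for alanine or Mars1 for methionine. The pattern found 38 genes of the 21470 in the table, of which 21 make the cytosolic enzymes and 17, with names ending in 2, the mitochondrial ones. Tarsl2 was counted as cytosolic, because it is a second cytosolic threonine enzyme in spite of its name.

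Mammalian cells charge tRNAs in 2 places. Cytosolic enzymes serve the ribosomes that read nuclear messages, and several of them sit together in the multisynthetase complex, held by the scaffold proteins Aimp1, Aimp2 and Eef1e1. Mitochondrial enzymes, also encoded in the nucleus, serve the ribosomes inside mitochondria, while Gars (glycine) and Kars (lysine) make both forms from 1 gene. Many cytosolic synthetase genes are known targets of ATF4, a transcription factor whose translation increases when the initiation factor eIF2α is phosphorylated, for example during amino acid shortage. In embryonic diapause the blastocyst pauses before implantation, with slow growth and low biosynthesis, and can later resume development.

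The libraries came from wild-type mouse embryos of B6D2F1 males crossed with ICR females, with no transgene or drug named for any group. Polyadenylated RNA was read from the 3′ ends of transcripts by BRB-seq, in which each library gets its own barcode during reverse transcription. The 4 groups held 5 libraries each: the inner cell mass (ICM, the embryonic side) and the trophectoderm (TE, the extra-embryonic side), each at E4 and at D10. The sources conflict on the times. In the list of barcodes E4 is called before and D10 is called day 6, and the title names times before and after diapause, but the protocol text describes diapause embryos throughout. The libraries of a group were amplified together, so the amplification pool and the group cannot be told apart. Within a time, ICM and TE libraries that share a number share a litter, and 2 of the 5 E4 litters still had a zona pellucida, the coat of the early embryo.

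Library totals were 144276 to 1010354 counts, and 3 counts correspond to 3.15 to 21.5 CPM (counts scaled to library size) across libraries. The summed CPM of 11 epiblast markers was 1760 to 3130 in E4 ICM and 715 to 1220 in D10 ICM, against 104 to 187 in E4 TE and 77.5 to 141 in D10 TE. Fgf4, with 57.9 to 107 CPM in E4 ICM and 11.5 to 69.7 in D10 ICM, was at 0 counts in both TE groups. Pou5f1 was too, but it had only 8 counts in E4 ICM and 1 in D10 ICM, so its counts do not separate the tissues. The 11 primitive endoderm markers summed to 2010 to 4550 CPM in E4 ICM and 7930 to 10900 in D10 ICM. Their sums in the TE were 1050 to 1490 CPM at E4 and 2670 to 3910 at D10. Dab2 alone had means of 951 CPM in E4 TE and 2600 in D10 TE, where the median sums were 1350 and 3190. Its ICM means were smaller, with 356 CPM at E4 and 1690 at D10. At E4, 9 of 10 tested markers of this list passed as higher in the ICM and 1 as lower. At D10 these numbers were 8 and 0. The 11 trophectoderm markers summed to 2430 to 3160 CPM in E4 ICM and 3740 to 5900 in D10 ICM, against 8080 to 9080 and 7950 to 11300 in the TE groups, so these markers were present in the ICM libraries too. Elf5, of this list, was at 161 ± 52.4 CPM (SD, n = 5) in D10 ICM and 69.0 ± 27.8 in D10 TE. Of 12 markers of cumulus, uterine and blood cells, 7 were in the table. They summed to 2.32 to 7.84 CPM in E4 ICM (median 6.2) and 4.64 to 161 in D10 ICM (median 24.7). In the TE they summed to 0 to 80.6 CPM at E4 and 0 to 3.65 at D10, both with a median of 0.

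Of the 38 synthetase genes, 29 had enough counts to be tested, with 179 to 2845 counts each over all 20 libraries. These were 20 of the 21 cytosolic genes (all but Tarsl2) and 9 of the 17 mitochondrial genes (Hars2, Iars2, Lars2, Mars2, Nars2, Rars2, Sars2, Tars2 and Yars2). The other 9 genes had 11 to 126 counts each and are described at the end.

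The upstream sequences of Mars1 and Mars2, the cytosolic and mitochondrial methionine enzymes, are shown because this pair differed most between the times. Each is the 250 bases before the annotated start, from RefSeq on GRCm38.p6, 5′ to 3′ on the strand of the gene. The Mars1 stretch lies at chr10:127311787-127312036 on the minus strand and the Mars2 stretch at chr1:55236927-55237176 on the plus strand.
Mars1: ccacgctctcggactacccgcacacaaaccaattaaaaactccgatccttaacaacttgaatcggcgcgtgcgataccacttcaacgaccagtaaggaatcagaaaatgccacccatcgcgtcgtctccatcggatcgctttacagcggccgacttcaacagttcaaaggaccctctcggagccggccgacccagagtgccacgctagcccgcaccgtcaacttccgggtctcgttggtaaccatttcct
Mars2: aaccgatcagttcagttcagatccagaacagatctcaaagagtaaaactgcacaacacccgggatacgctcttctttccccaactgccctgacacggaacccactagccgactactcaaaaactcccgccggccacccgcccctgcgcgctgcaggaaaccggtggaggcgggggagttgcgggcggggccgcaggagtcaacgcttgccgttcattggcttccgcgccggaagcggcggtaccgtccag

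The window searched ran from 250 bases before to 50 after the start, and RefSeq windows matched 28 of the 38 genes, 14 in each compartment. The cytosolic genes Cars, Hars, Lars, Nars, Rars, Vars and Wars had no window and were not searched. The search covered 2 letter patterns on both strands. The first, TGATGNAAT, is a form of the composite element through which ATF4 and a C/EBP partner are known to bind. Forms with another last letter were not searched. The second, CACGTG, is the E-box read by MYC and related factors. TGATGNAAT was found in 3 of 14 cytosolic genes (Aars, Gars and Iars) and in 0 of 14 mitochondrial genes. Over all 27025 genes with windows of this length the share was 1.08% (0.965% of 32851 windows). CACGTG was found in Aars, Farsb, Iars and Tars among the cytosolic genes and in Ears2 among the mitochondrial ones, against 8.09% of all genes (7.15% of windows). The Mars1 and Mars2 windows held neither pattern. A match is a description of the letters and not of binding. The 3 stretches that hold TGATGNAAT are printed with the pattern in capitals, here read as its reverse complement, and lie at chr8:111033721-111033745, chr6:55037962-55037986 and chr13:49682128-49682152, all on the plus strand.
Aars: tcttgagcATTGCATCAgccgagcc
Gars: gctgcgctATTTCATCAtgcaccgg
Iars: ctgtcagtATTGCATCAcctccaga

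Summed over the 21 cytosolic genes, the synthetase level in E4 ICM was 3620 ± 821 CPM (SD, n = 5), with libraries from 3060 to 5050. In D10 ICM the sum was 2600 ± 181 CPM (2360 to 2830), so that all 5 D10 libraries lay below all 5 E4 libraries. In E4 TE it was 2870 ± 502 CPM (2400 to 3700) and in D10 TE 2300 ± 165 CPM (2110 to 2490), where the ranges overlapped. The 17 mitochondrial genes summed to 450 ± 51.0 CPM in E4 ICM, 426 ± 53.5 in D10 ICM, 365 ± 50.4 in E4 TE and 392 ± 39.5 in D10 TE, and these groups overlapped between the times in both tissues. The cytosolic sum was 8.14 ± 2.19 times the mitochondrial sum in E4 ICM and 6.15 ± 0.48 times in D10 ICM, and 7.99 ± 1.95 and 5.91 ± 0.539 times in E4 TE and D10 TE. This ratio overlapped between the times in both tissues. It was 6.42 to 11.9 in E4 ICM and 5.41 to 6.67 in D10 ICM, and 6.35 to 11.2 in E4 TE and 5.34 to 6.69 in D10 TE. Replicate 3, from 1 litter, had the highest ratio at E4 in both tissues, at 11.9 in the ICM and 11.2 in the TE. The sums were not tested. All values are shares of a library, so fewer cells of a type and less RNA per cell cannot be told apart.

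**Figure D1:**
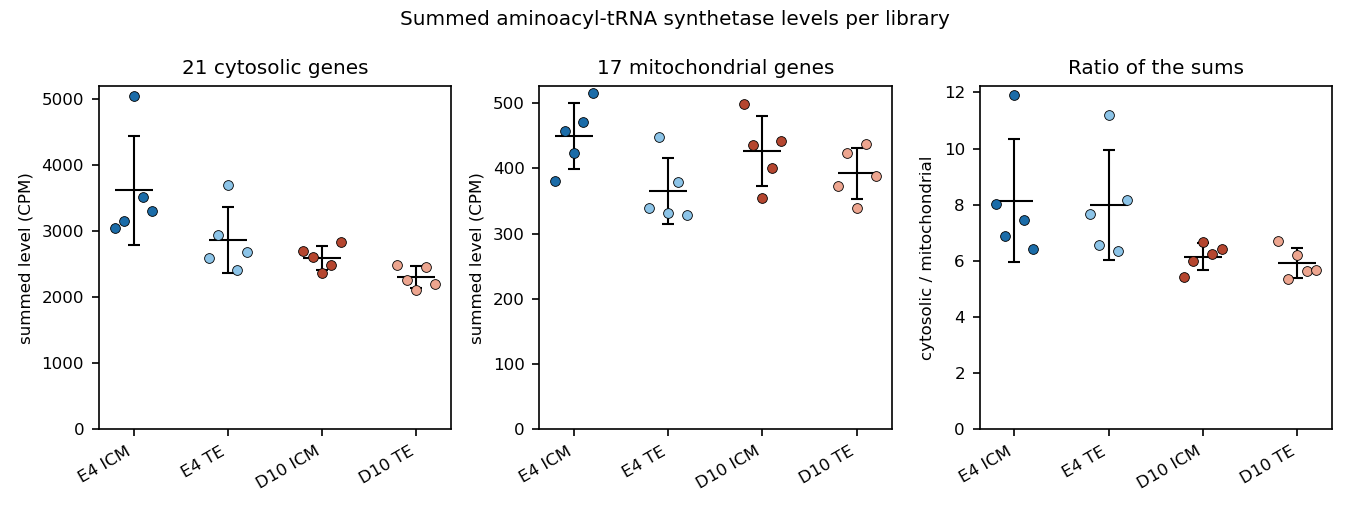
Summed CPM of the 21 cytosolic genes (left), summed CPM of the 17 mitochondrial genes (middle) and the ratio of the sums (right) in each library, with the group mean and SD (n = 5). The cytosolic sums of D10 ICM lie below all those of E4 ICM, while the mitochondrial sums and the ratios overlap.

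Between E4 and D10 in the ICM, the synthetase genes called lower in the edgeR fit were cytosolic, led by Mars1, Cars and Aars. Of the 20 tested cytosolic genes, 6 were lower at D10 (Mars1, Cars, Aars, Sars, Tars and Yars, for methionine, cysteine, alanine, serine, threonine and tyrosine) and 0 were higher, while of the 9 tested mitochondrial genes 2 were higher (Mars2 and Hars2, for methionine and histidine) and 0 were lower. Of all 6943 tested genes, 23.7% had an adjusted p under 0.05, 9.97% as lower and 13.7% as higher. The median log2 difference was -0.49 over the cytosolic genes and -0.15 over the mitochondrial genes, against -0.0031 over all tested genes, and 17 of the 20 cytosolic genes had a negative value. The split by compartment depended on the test. With voom in place of edgeR, Mars2 and Hars2 were lost, and the mitochondrial gene Sars2 was called lower, as were Dars and Lars.

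Mars1 (chr10:127296221-127311786, minus strand) had 95.1, 138, 174, 174 and 138 CPM in the E4 ICM libraries 1 to 5 and 28.5, 39.5, 49.9, 44.1 and 27.9 CPM in the D10 ICM libraries. Every D10 library lay below every E4 library. The log2 difference was -1.91 ± 0.243 (SE, adjusted p = 6.5e-06). Cars (chr7:143557230-143600090, minus strand) had 25.4, 36.6, 81.1, 41.4 and 64.5 CPM at E4 and 19, 8.24, 16.6, 14.7 and 9.29 CPM at D10, again without overlap, although these D10 levels rest on 2 to 14 counts per library. Its log2 difference was -1.95 ± 0.386 (adjusted p = 0.000715). Aars (chr8:111033144-111057664, plus strand) had 146, 118, 160, 122 and 129 CPM at E4 and 52.3, 54.4, 55.4, 70.3 and 51.1 CPM at D10. All of its last 1000 exon bases, the end that is read, are shared on the same strand with Exosc6, so these values cannot be assigned to Aars alone. Its groups did not overlap, and it fell by 1.21 ± 0.242 on the log2 scale (adjusted p = 0.000786).

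Sars (chr3:108424865-108445209, minus strand) had 171, 118, 195, 101 and 112 CPM at E4 and 66.5, 65.9, 49.9, 71.4 and 74.3 CPM at D10, without overlap. It fell by 1.05 ± 0.292 on the log2 scale (adjusted p = 0.0101). Tars (-0.86 ± 0.248, adjusted p = 0.0129) also had no overlap between the times, whereas Yars (-1.03 ± 0.299, adjusted p = 0.0139) did. Without E4 ICM replicate 3, the library with the highest cytosolic sum, Tars and Yars no longer passed, with adjusted p of 0.0583 and 0.0577. Libraries did not overlap for 6 synthetase genes (Mars1, Cars, Aars, Sars, Tars and Hars2), as for 14.5% of all tested genes.

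Mars2 (chr1:55237177-55248470, plus strand) had 6.34, 20.9, 25.5, 22.7 and 12.9 CPM in E4 ICM and 42.8, 33.0, 16.6, 43.0 and 69.7 CPM in D10 ICM, with 1 to 11 counts per library at E4. Only D10 library 3 fell within the E4 range, and the log2 difference was 1.07 ± 0.38 (adjusted p = 0.0426). Hars2 had 38.0, 39.2, 44.0, 28.9 and 25.8 CPM at E4 and 76.1, 56.0, 44.3, 47.2 and 74.3 CPM at D10. All D10 libraries were above all E4 libraries, and the log2 difference was 0.71 ± 0.26 (adjusted p = 0.0467). Both rises lay near the threshold. Each was lost when any of 7 single libraries was left out, namely replicates 1, 2, 4 and 5 of E4 ICM and replicates 1 and 5 of D10 ICM for both, replicate 4 of D10 ICM for Mars2 and replicate 2 of D10 ICM for Hars2, with adjusted p up to 0.105 for Mars2 and 0.112 for Hars2. Leaving out the E4 litters with a zona also ended both calls. In the ICM, 7 of 10 tested epiblast markers were lower and 0 higher at D10, 5 of 10 primitive endoderm markers were higher and 1 lower, and 5 of 11 trophectoderm markers were higher and 1 lower. The part of this shift in the synthetase values was not tested.

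**Figure D2:**
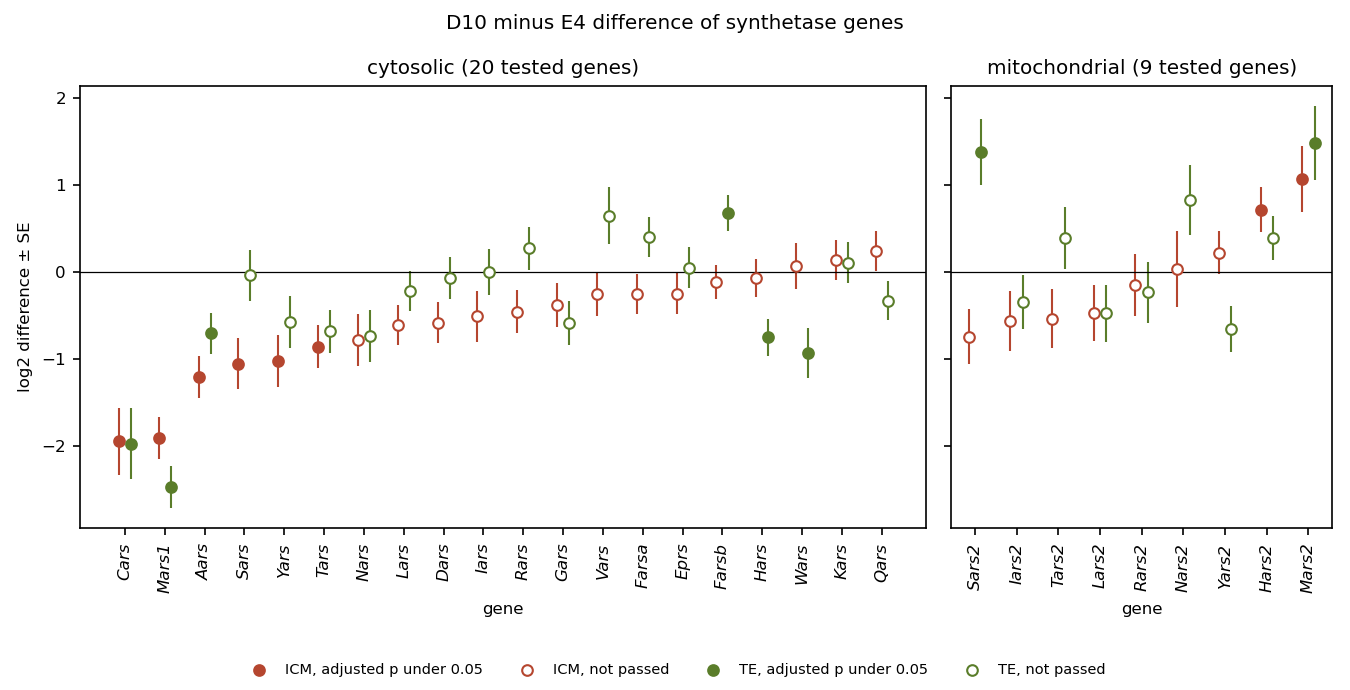
Log2 difference of D10 minus E4, with its SE, for the 20 tested cytosolic (left) and 9 tested mitochondrial genes (right) in the ICM (red) and the TE (green); filled points have an adjusted p under 0.05. Mars1 and Cars are the lowest in both tissues, and Mars2 is above 0 in both.

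In the TE, Mars1 and Cars were again the cytosolic genes that fell most from E4 to D10, and Mars2 again rose. Of the 20 tested cytosolic genes, 5 were lower (Mars1, Cars, Hars, Wars and Aars) and 1 was higher (Farsb), and of the 9 mitochondrial genes 2 were higher (Sars2 and Mars2) and 0 lower. Of all tested genes 21.8% passed, 9.89% as lower and 11.9% as higher. Medians of the log2 difference were -0.28 over the cytosolic and 0.38 over the mitochondrial genes, against 0.0206 over all tested genes.

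Mars1 had 138, 265, 187, 167 and 136 CPM in E4 TE and 43.8, 30.6, 26.1, 27.9 and 32.8 CPM in D10 TE. The lowest E4 library was above the highest D10 library, and the log2 difference was -2.47 ± 0.239 (adjusted p = 4.44e-08). Cars had 23.0, 37.3, 63.3, 23.9 and 21.5 CPM at E4 and 9.13, 8.16, 12.0, 8.73 and 5.46 CPM at D10, without overlap. These levels rest on 54 counts over all E4 TE libraries and 22 over all D10 TE libraries. The log2 difference of Cars was -1.97 ± 0.404 (adjusted p = 0.000881). Hars, the cytosolic histidine enzyme, had 127, 120, 136, 110 and 107 CPM at E4 and 98.6, 71.4, 54.2, 54.1 and 79.2 CPM at D10. Its groups did not overlap either, and it fell by 0.75 ± 0.215 on the log2 scale (adjusted p = 0.0128). These 3 were the synthetase genes without overlap between the times in the TE, as were 15.2% of all tested genes.

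Farsb (chr1:78417975-78488897, minus strand) encodes the beta chain of the phenylalanine enzyme, which works as a tetramer with the alpha chain from Farsa. It had 92.1, 145, 124, 91.6 and 136 CPM in E4 TE and 197, 210, 140, 222 and 158 CPM in D10 TE. Only D10 library 3 lay within the E4 range, and the log2 difference was 0.67 ± 0.207 (adjusted p = 0.0212). Farsa had a difference of 0.39 ± 0.231 that did not pass (adjusted p = 0.232). Wars (tryptophan) fell by 0.94 ± 0.29 (adjusted p = 0.0213) and Aars by 0.71 ± 0.235 on the log2 scale (adjusted p = 0.0319), both with overlapping libraries. Calls of Farsb, Wars and Aars were lost with no filter on low counts and with thinned libraries, where Wars went to -0.55 (adjusted p = 0.337). Farsb and Aars were also lost without the zona litters (adjusted p = 0.0761 and 0.0905). Single libraries ended these calls too, with adjusted p up to 0.0852 for Farsb (replicates 1 and 4 of E4 TE, 2 and 4 of D10 TE), 0.117 for Wars (replicate 3 of E4 TE or of D10 TE) and 0.103 for Aars (replicates 2 and 3 of E4 TE, 2, 3 and 4 of D10 TE).

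Sars2 (chr7:28741992-28753871, plus strand), the mitochondrial serine enzyme, had 5.75, 16.6, 14.6, 9.96 and 14.3 CPM in E4 TE and 16.4, 26.5, 46.1, 45.4 and 27.3 CPM in D10 TE. The lowest D10 library just overlapped the highest E4 library, and the log2 difference was 1.38 ± 0.379 (adjusted p = 0.00993). Mars2 had 17.3, 8.29, 14.6, 7.97 and 14.3 CPM at E4 and 31.0, 55.0, 16.1, 27.9 and 38.2 CPM at D10. D10 library 3 was the lowest of its group and lay within the E4 range, and the log2 difference was 1.48 ± 0.424 (adjusted p = 0.0132). Without replicate 4 of E4 TE or replicate 2 of D10 TE the Mars2 call was lost, with an adjusted p up to 0.0594, and without the zona litters it was 0.052. E4 TE levels of both genes rest on 1 to 6 counts per library. In the TE, 2 of 10 tested primitive endoderm markers were higher and 0 lower at D10, 1 of 10 epiblast markers was higher and 0 lower, and 3 of 11 trophectoderm markers were higher and 1 lower, and their part in these values was not tested.

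The comparisons in the ICM and in the TE use different libraries of the same litters, so they are not independent. Mars1, Cars and Aars passed as lower in both. This is 3 of 20 tested cytosolic genes (15%) and 3 of 29 tested synthetase genes (10.3%), against 202 of all 6943 tested genes (2.91%). Mars2 passed as higher in both, 1 of 9 tested mitochondrial genes (11.1%) and 1 of 29 tested synthetase genes (3.45%), against 5.8% of all tested genes. The Aars call in the TE was lost in 8 of 27 alternatives. Mars2 was lost in 10 of 25 in the ICM and 3 of 25 in the TE. The sign was negative in both tissues for 12 of the 20 cytosolic genes and 3 of the 9 mitochondrial genes, against 32.4% of all tested genes.

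**Figure D3:**
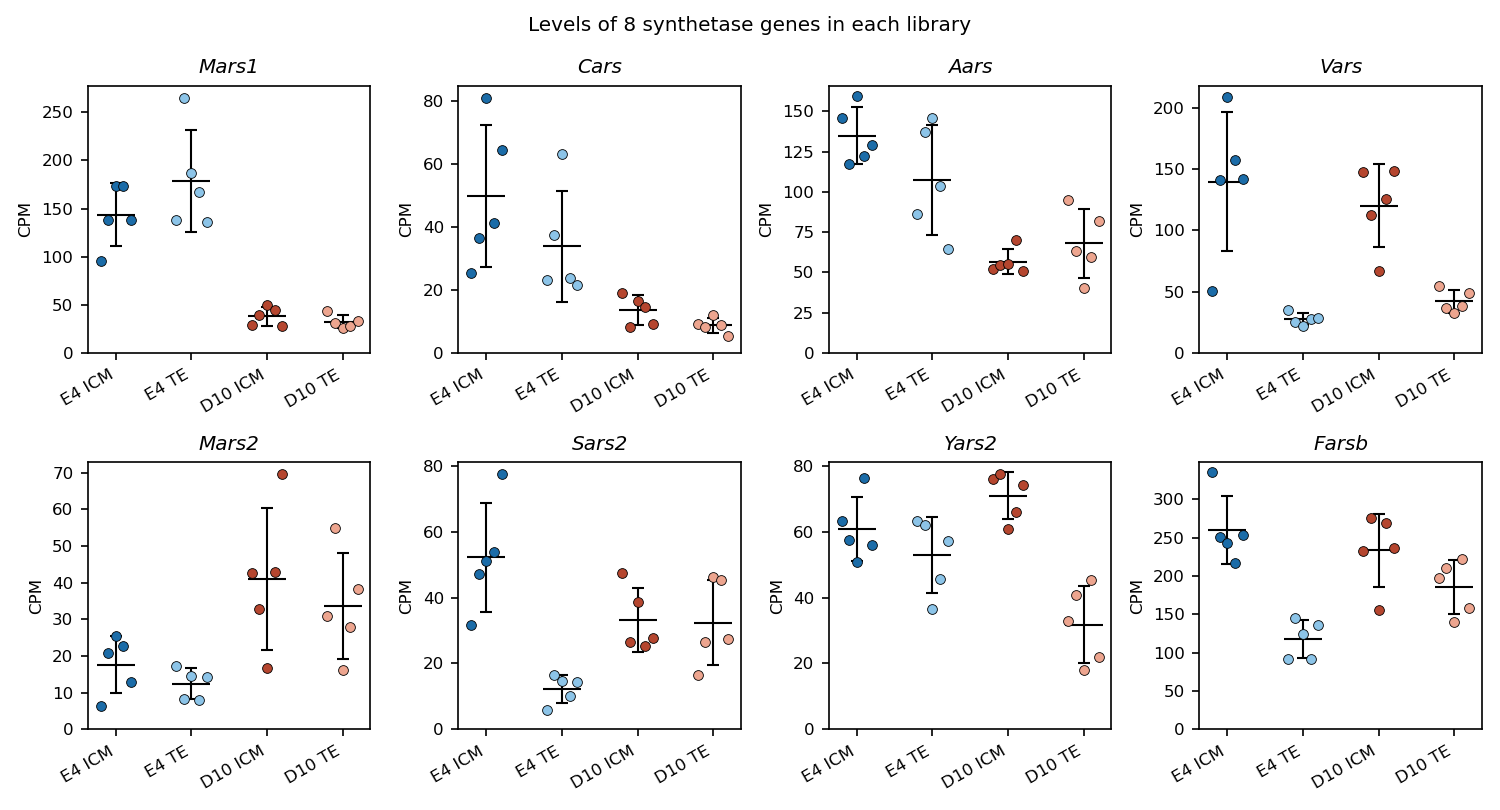
CPM of 8 synthetase genes in each library of the 4 groups, with the group mean and SD (n = 5). Mars1 and Cars are lower at D10 in both tissues, Vars is higher in the ICM than in the TE at both times, and Sars2 is low in E4 TE.

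For 9 amino acids both the cytosolic and the mitochondrial gene were tested, so their count ratio within each library could be compared, which does not depend on library scaling. The Mars1 to Mars2 log2 ratio was 2.97 ± 0.313 (SD, n = 5) in E4 ICM and -0.0138 ± 1.00 in D10 ICM, and 3.65 ± 0.807 in E4 TE and 0.0223 ± 0.593 in D10 TE. In both tissues the ratio of the methionine pair was lower in every D10 library than in every E4 library. Yars to Yars2 was 0.604 ± 0.449 in E4 ICM and -0.715 ± 0.479 in D10 ICM, also without overlap. In the TE, Hars to Hars2 was 1.66 ± 0.409 at E4 and 0.441 ± 0.343 at D10, and Nars to Nars2 was 4.29 ± 0.581 and 2.73 ± 0.484, both without overlap. Each of these 5 differences had the smallest p that an exact two-sided permutation test can give with 5 against 5 libraries, 0.00794. After adjustment over the 36 pair comparisons this became 0.0571, so 0 of 36 passed, while 7 had an unadjusted p under 0.05. Ratios compare 3′ counts of different transcripts, so their change between groups can be read but not their size.

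**Figure D4:**
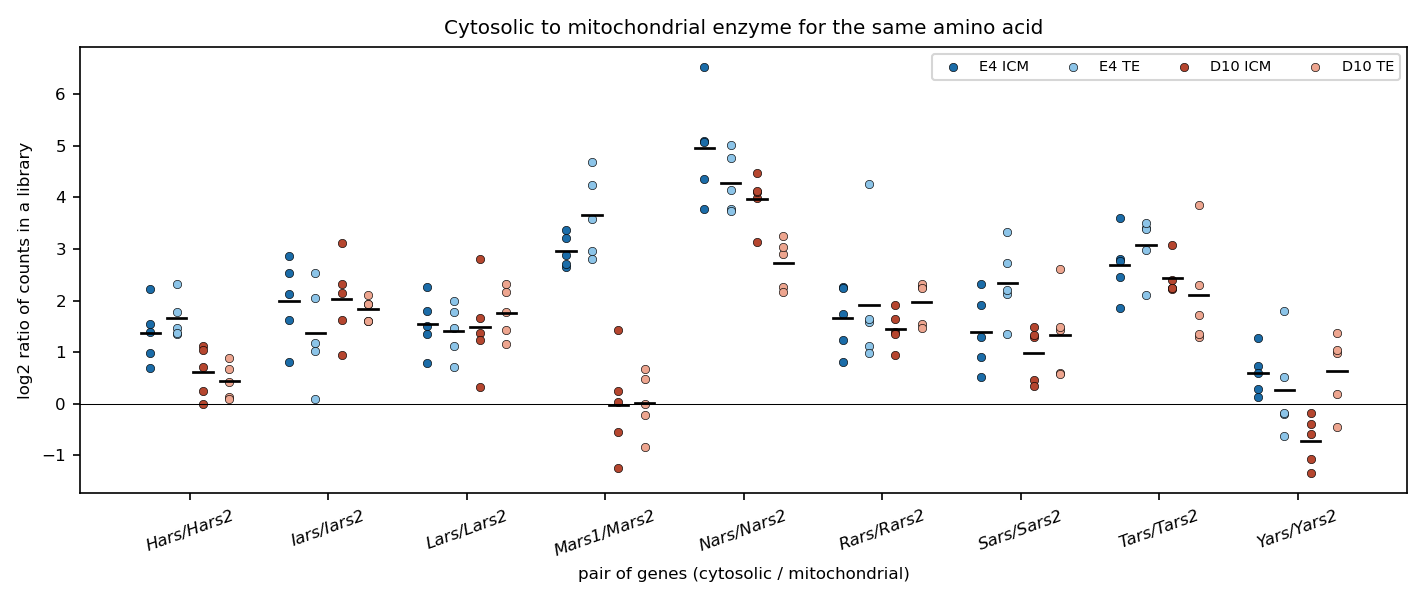
Log2 ratio of cytosolic to mitochondrial counts in each library for the 9 amino acids with both genes tested; bars are group means of 5 libraries. Mars1/Mars2 lies between 2.65 and 4.69 in the E4 libraries and between -1.25 and 1.44 in the D10 libraries.

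The cytosolic genes were also grouped by role. A list of 12 that are often named as ATF4 targets, drawn up from general knowledge, held Aars, Cars, Eprs, Gars, Iars, Lars, Mars1, Nars, Sars, Tars, Wars and Yars. Of these 12, 6 were lower in the ICM and 4 in the TE (Mars1, Cars, Wars and Aars), against 9.97% and 9.89% of all tested genes, with median log2 differences of -0.82 and -0.64. Of the other 8 tested cytosolic synthetases, 0 were lower in the ICM and 1 (Hars) in the TE, with medians of -0.19 and 0.19, and 1 (Farsb) was higher in the TE. This split was chosen with earlier results known, so it is a description and no evidence about ATF4. Of the 8 enzymes of the multisynthetase complex (Dars, Eprs, Iars, Kars, Lars, Mars1, Qars and Rars), Mars1 alone passed between the times, in both tissues. Among the complex's scaffold proteins, Eef1e1 was lower in the ICM (-0.63 ± 0.203, adjusted p = 0.025), and Aimp1 did not pass in either tissue. Both structural classes of synthetase, which differ in the fold of the catalytic domain, had 3 lower genes in the ICM, of 9 tested in class I and 10 in class II. Gars and Kars, which serve both compartments, did not pass in any comparison, with D10 minus E4 differences of -0.38 ± 0.251 and 0.14 ± 0.233 in the ICM.

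Other genes of the amino acid response did not all move with the synthetases. Of 15 tested genes of this list, 3 were higher and 2 lower at D10 in the ICM, and 2 were higher and 5 lower in the TE. Atf4 itself fell in the TE (-1.10 ± 0.282, adjusted p = 0.00606) and had -0.39 ± 0.28 in the ICM (adjusted p = 0.343). In the ICM, Eif4ebp1, an inhibitor of cap-dependent translation, fell by 1.74 ± 0.376 (adjusted p = 0.00154), as did Xpot, the tRNA exporter, by 0.86 ± 0.247 (adjusted p = 0.0125). Sesn2, which senses leucine upstream of mTORC1, rose by 1.84 ± 0.487 in the ICM (adjusted p = 0.00768). In the TE, Psat1, an enzyme of serine synthesis, fell by 2.30 ± 0.546 (adjusted p = 0.00333), and the stress gene Nupr1 rose by 3.61 ± 0.559 (adjusted p = 4.33e-05). Slc3a2, the heavy chain of amino acid transporters, rose in both tissues, by 0.83 ± 0.259 in the ICM (adjusted p = 0.0213) and 1.21 ± 0.258 in the TE (adjusted p = 0.0013). Eif2ak3, the eIF2α kinase PERK, rose by 2.21 ± 0.46 in the ICM (adjusted p = 0.00112) and 3.39 ± 0.418 in the TE (adjusted p = 2.09e-06). It belongs to a list of eIF2α, its kinases and its phosphatase subunits, with 4 tested genes. Of these, 1 was higher and 1 lower in the ICM, and 2 were higher and 1 lower in the TE. The shares of all tested genes are those given above. Ppp1r15b, a phosphatase subunit, had a mean of 133 CPM in E4 ICM and 76.7 in D10 ICM. Its means in the TE were 159 CPM at E4 and 99.8 at D10.

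Among the genes that make and use tRNAs, few of RNA polymerase III and of mitochondrial elongation passed in either tissue. Those of cytosolic elongation passed more often in the TE than in the ICM, but these lists are short. Of all tested genes, 23.7% passed in the ICM and 21.8% in the TE. Of 21 tested genes for tRNA processing and export, 1 was higher and 2 lower at D10 in the ICM, and 4 were higher and 0 lower in the TE. Of 16 tested genes of RNA polymerase III, which transcribes tRNA genes, 1 was lower in the ICM and 0 passed in the TE. Of 8 tested mitochondrial elongation genes, 0 passed in the ICM, and Qrsl1, a subunit of the enzyme that makes mitochondrial glutaminyl-tRNA, rose in the TE (1.35 ± 0.34, adjusted p = 0.0055). Of 6 tested cytosolic elongation genes, 1 was higher (Eef2) and 1 lower (Eef1g) in the ICM, and 3 were higher (Eef1d, Eef1b2 and Eef2) and 1 lower (Eif5a) in the TE. Eef2, the translocase, passed in both, by 0.76 ± 0.209 in the ICM (adjusted p = 0.0099) and 0.80 ± 0.209 in the TE (adjusted p = 0.00724).

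Between the tissues at E4, Vars and Sars2 were the synthetase genes that differed most, both higher in the ICM. Of the 20 cytosolic genes, 3 were higher in the ICM (Vars, Farsb and Sars) and 1 lower (Qars), and of the 9 mitochondrial genes 1 was higher (Sars2) and 0 lower, against 15.8% higher and 15.4% lower among all tested genes. In all, 5 of 29 synthetase genes passed, against 31.2% of all tested genes. Medians were 0.34 over the cytosolic and 0.25 over the mitochondrial genes, against 0.0346 over all.

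Vars (chr17:35000987-35016322, plus strand), the valine enzyme, had 50.7, 141, 208, 157 and 142 CPM in E4 ICM and 34.5, 24.9, 21.9, 27.9 and 28.6 CPM in E4 TE. The groups did not overlap, although ICM library 1 was far nearer to the TE than the others, and the log2 difference was 2.41 ± 0.308 (adjusted p = 2.2e-06). Vars is known to bind the eEF1 complex, which reloads the elongation factor eEF1A. In the E4 ICM, 3 of the 6 tested elongation genes were also higher, against 15.8% of all tested genes. These were the eEF1 subunits Eef1d (1.48 ± 0.219, adjusted p = 1.46e-05), Eef1b2 (0.68 ± 0.223, adjusted p = 0.021) and Eef1g (0.60 ± 0.204, adjusted p = 0.0262). Each was without overlap, as were 20.8% of all tested genes. A link of these levels to Vars was not tested. At D10, where Vars was again higher in the ICM, these 3 subunits did not pass, with differences of 0.27 ± 0.205, 0.08 ± 0.22 and -0.17 ± 0.202.

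Sars2 had 31.7, 47.0, 51.0, 53.8 and 77.4 CPM in E4 ICM, all above the 5.75 to 16.6 CPM of E4 TE, and the log2 difference was 2.07 ± 0.375 (adjusted p = 0.000151). Farsb had 336, 251, 243, 217 and 254 CPM in E4 ICM, all above its 91.6 to 145 CPM in E4 TE, and the difference was 1.14 ± 0.21 (adjusted p = 0.000182). Qars, the glutamine enzyme, ran the other way. It had 158, 131, 146, 136 and 90.3 CPM in E4 ICM and 178, 282, 178, 225 and 200 CPM in E4 TE, without overlap, and a difference of -0.69 ± 0.232 (adjusted p = 0.025). Tars2, the mitochondrial threonine enzyme, had 38.0, 60.1, 32.4, 43.4 and 43.0 CPM in E4 ICM and 11.5, 24.9, 29.2, 27.9 and 14.3 CPM in E4 TE. Its groups did not overlap, but its difference of 0.89 ± 0.362 did not pass (adjusted p = 0.0633). Vars, Sars2, Farsb, Qars and Tars2 were the synthetase genes without overlap, as were 20.8% of all genes.

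Sars had 171, 118, 195, 101 and 112 CPM in E4 ICM and 34.5, 45.6, 158, 71.7 and 78.7 CPM in E4 TE. Its difference of 0.76 ± 0.291 lay at the threshold (adjusted p = 0.0492), with E4 TE library 3 inside the ICM range. Without that library the difference was 1.21 (adjusted p = 0.00155), and without the zona litters it was 0.33 (adjusted p = 0.506). The Sars call was lost in 18 of 20 fits that each left out 1 library (adjusted p up to 0.201), the exceptions being replicate 4 of E4 ICM and replicate 3 of E4 TE. Qars was lost without replicate 5 of E4 ICM or replicate 2 of E4 TE (adjusted p up to 0.0612), and both genes were lost without the litters that had a zona. Marker sums of all 3 lineages also differ between these tissues, as given above, and their part in the synthetase values was not tested.

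**Figure D5:**
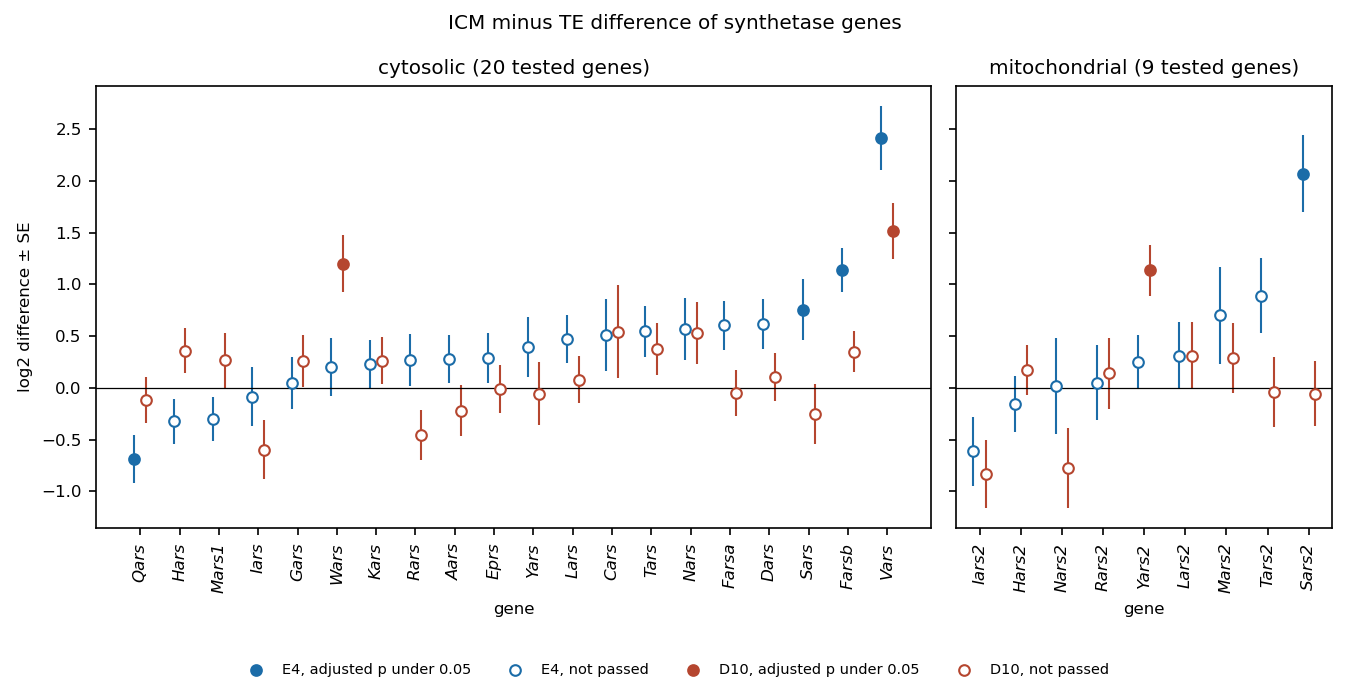
Log2 difference of ICM minus TE, with its SE, for the 20 tested cytosolic (left) and 9 tested mitochondrial genes (right) at E4 (blue) and D10 (red); filled points have an adjusted p under 0.05. Vars is filled at both times, and Sars2 is at 2.07 at E4 and -0.06 at D10.

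At D10, Vars was still higher in the ICM than in the TE, and Wars and Yars2 were too. Of the 20 cytosolic genes 2 were higher in the ICM and 0 lower, and of the 9 mitochondrial genes 1 was higher and 0 lower, against 12.9% and 12.6% of all tested genes (25.5% in either direction). Vars had 147, 112, 66.5, 126 and 149 CPM in D10 ICM and 54.8, 36.7, 32.1, 38.4 and 49.2 CPM in D10 TE. The groups did not overlap, and the log2 difference was 1.51 ± 0.27 (adjusted p = 0.000139). Yars2 (chr16:16302965-16309640, plus strand), the mitochondrial tyrosine enzyme, had 76.1, 77.5, 60.9, 66.1 and 74.3 CPM in D10 ICM and 32.9, 40.8, 18.1, 45.4 and 21.9 CPM in D10 TE. Its groups were apart as well, with a difference of 1.13 ± 0.248 (adjusted p = 0.0012). Wars (chr12:108860030-108894174, minus strand) had 66.5, 59.3, 49.9, 104 and 60.4 CPM in D10 ICM and 31.0, 36.7, 18.1, 26.2 and 43.7 CPM in D10 TE. No library overlapped, and the difference was 1.20 ± 0.277 (adjusted p = 0.00195).

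These 3 were the synthetase genes without overlap at D10, as were 16.3% of all tested genes. Iars2, the mitochondrial isoleucine enzyme, had 14.3, 24.7, 16.6, 24.1 and 27.9 CPM in D10 ICM and 38.3, 44.9, 24.1, 38.4 and 57.4 CPM in D10 TE. Its difference of -0.83 ± 0.328 did not pass (adjusted p = 0.0643), but with litter as a block it did, at -0.87 (adjusted p = 0.04). Iars, its cytosolic counterpart, had 143, 112, 94.2, 75.6 and 55.7 CPM in D10 ICM and 119, 173, 106, 148 and 178 CPM in D10 TE, and a difference of -0.60 ± 0.284 (adjusted p = 0.129). Rars, the arginine enzyme, had 114, 95.6, 77.6, 99.7 and 121 CPM in D10 ICM and 153, 157, 156, 134 and 92.9 CPM in D10 TE, and -0.46 ± 0.243 (adjusted p = 0.175). Both overlapped between the tissues. Of 15 tested amino acid response genes, 6 had higher and 2 lower levels in the D10 ICM, against 12.9% and 12.6% of all tested genes. They were led by Slc7a1, a cationic amino acid transporter (3.77 ± 0.559, adjusted p = 1.4e-05).

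Of the 29 tested synthetase genes, Sars2 alone had a change from E4 to D10 that differed between the tissues. Its change was -0.75 ± 0.317 in the ICM (adjusted p = 0.0898) and 1.38 ± 0.379 in the TE, and the difference of the changes, ICM minus TE, was -2.13 ± 0.494 (adjusted p = 0.0111). The D10 ICM libraries had 47.5, 26.4, 38.8, 25.2 and 27.9 CPM. At D10 the Sars2 levels of the 2 tissues overlapped, whereas at E4 they did not. Of all tested genes 4.98% passed this comparison, 3.15% as higher and 1.83% as lower, and of the 29 synthetase genes 0 passed as higher and 1 as lower. The next smallest adjusted p were those of Farsb (-0.79 ± 0.286, 0.112), Wars (1.00 ± 0.394, 0.149) and Sars (-1.01 ± 0.412, 0.168), so the changes of the other genes that passed in 1 tissue only, such as Wars and Hars, were not shown to differ between the tissues. For Sars this rests on 1 library, since without E4 TE replicate 3 its difference of the changes was -1.45 (adjusted p = 0.0198). For Mars1 the difference of the changes was 0.57 ± 0.341 (adjusted p = 0.372) and for Cars 0.03 ± 0.407 (adjusted p = 0.989).

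The 9 genes with too few counts to test were Tarsl2 and 8 mitochondrial enzymes, among them Ears2 (glutamate), Fars2 (phenylalanine) and Vars2 (valine). Pooled over the 5 libraries of a group, Ears2 had 34 counts at E4 and 36 at D10 for the ICM, against 21 and 35 for the TE. Fars2 had 10 and 17 counts for the ICM and 5 and 27 for the TE, and Vars2 had 22 and 18 against 16 and 11. Such counts are too low to compare the groups. Tarsl2 had 5 counts in E4 ICM, 6 in D10 ICM and 0 in both TE groups, which allows up to 3 counts, or 2.04 CPM over E4 TE and 1.21 CPM over D10 TE. In a fit without the filter on low counts, which takes in all 38 genes, D10 against E4 gave 0 higher and 7 lower genes for the ICM and 2 higher and 3 lower genes for the TE. Of the 20558 genes in that fit, 6.46% were higher and 3.35% lower in the ICM, and 5.11% and 3.71% in the TE. Medians in that fit were -0.44 over the 21 cytosolic and -0.34 over the 17 mitochondrial genes in the ICM, so the gap between the compartments was smaller there than among the tested genes.

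Some synthetase genes share sequence with a neighbour, and whether counting used strand is not given in the sources used here. In the GENCODE M21 annotation of GRCm38, Mars1 overlaps Ddit3 on the opposite strand by 68 exon bases at its 3′ end, and Ddit3 had 42 counts over all 20 libraries, against 694 for Mars1. Aars shares 1326 exon bases with Exosc6 on the same strand, among them all of its last 1000, so the falls given for Aars may hold reads of both genes. Exosc6 has no row of its own in the count table, so its level could not be set beside that of Aars. Iars2 overlaps Rab3gap2 (102 counts) by 2034 exon bases on the opposite strand, among them all of its last 1000. If strand was not used, the Iars2 values cannot be assigned to Iars2 alone. Farsb overlaps Sgpp2 by 248 and Yars overlaps C77080 by 30 exon bases, both on the opposite strand. Tarsl2 shares 120 exon bases with Tm2d3 (477 counts) on the same strand, all within its last 1000, so its few counts carry the same limit. Hars and Hars2 overlap by 195 bases at their 5′ ends, away from the 3′ ends that were read.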

How the data were processed

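The authors deposited raw read counts per gene and barcode as 1 table of 20 libraries, with 0 per-sample columns left unused. UMI-tools, Trim Galore 0.6.7, HISAT2 2.2.1, featureCounts 2.0.1, GRCm38 and GRCh38 are named in the submitters' processing notes without a role. Whether UMIs were collapsed, whether strand was used and which annotation was counted is not given in the sources used here, so counting limits cover counting error only. Nothing says whether a library is a single embryo, and p-values therefore describe only how these libraries vary.

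Genes were tested with edgeR 4.0.16 (R 4.3.3), by its quasi-likelihood test with TMM normalization, in a joint fit of the 4 groups. It took the 6943 genes that filterByExpr kept at a minimum count of 10. Adjustment was by Benjamini-Hochberg over these genes, at 0.05. CPM use TMM factors. The 2 most alike libraries of a group still differed beyond counting noise (chi-square per degree of freedom 2.57). Libraries of a shared litter, as named in the barcode list, deviated together from their group means (mean correlation 0.177 at E4 and 0.168 at D10, single pairs from -0.0302 to 0.293), so litter was a block in an alternative. On simulated counts for the ICM times, with 6943 genes, 40% of 2-fold and 92% of 4-fold changes were recovered. Pair ratios used log2 counts with a pseudocount of 0.5 and were added after the data were seen. Library values are printed for the 4 cytosolic and 2 mitochondrial genes with the smallest adjusted p in each comparison of times or tissues and for genes that pass in the difference of the changes, and up to 3 genes are named per pathway list. Other named genes, such as Tars, Yars, Atf4 and Slc3a2 in the ICM, were chosen after their values were seen. The genes and lists were chosen with earlier results of these data known. Alternatives were DESeq2 1.42.0, voom (limma 3.58.1), DESeq2 size factors, no filter, a minimum count of 20, libraries thinned to 144276 counts, no E4 litters with a zona, the litter block and leaving out each library.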

Additional observations from a re-analysis of the deposited data

Results flagged for a closer look

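The change of Sars2 from E4 to D10 differed between the tissues by -2.13 on the log2 scale (ICM minus TE, adjusted p = 0.0111 in edgeR's quasi-likelihood test). Among 88 sets of 5 libraries (19 genes and the sums), 3 had 1 library far from the other 4, and chance alone gives about 1 in 20 such sets. The summed cytosolic level of E4 ICM replicate 3 was 5052 CPM, with the other 4 libraries from 3056 to 3521. Aars had 70.3 CPM in D10 ICM replicate 4, above 51.1 to 55.4 in the others. Yars had 129 CPM in E4 TE replicate 3, above 40.3 to 65.7 in the others.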

How the results depend on the processing

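Of the 25 gene calls, 13 passed in every alternative that could be fitted. These were Mars1 and Cars in both tissues, Aars and Sars in the ICM, Sars2 in the TE, at E4 and in the difference of the changes, Farsb at E4, Vars at both times and Yars2 at D10. With the minimum count of 20 or thinned libraries, Cars, Sars2 and Mars2 did not enter the fit, nor did Hars2 and Yars2 with thinning. 0 values reversed. Calls (higher and lower together, then higher, then lower) numbered 8, 2 and 6 for D10 against E4 in the ICM. Without 1 library they ranged over 6 to 9, 0 to 2 and 4 to 8. The higher calls became 1 with DESeq2 or a minimum of 20 and 0 with voom, no filter, thinning or no zona litters, and all calls became 4 with thinning. In the TE the numbers were 8, 3 and 5, and 5 to 10, 1 to 3 and 4 to 7 without 1 library. No filter gave 5 calls, 3 of them lower. Thinning gave 2 calls, 0 higher and 2 lower. Higher calls were 1 with a minimum of 20 and 1 without the zona litters. At E4, ICM against TE gave 5, 4 and 1, and 3 to 8, 3 to 7 and 0 to 1 without 1 library. No filter and no zona litters gave 3 calls each, and these and thinning gave 0 lower. At D10 it gave 3, 3 and 0, and 3 to 4, 3 and 0 to 1 without 1 library, 1 with thinning, and 1 lower gene with litter as a replicate block. In the difference of the changes, 1 lower call became 0 with a minimum of 20 or thinning, where Sars2 was not fitted, and was 1 to 2 without 1 library, Sars being added without E4 TE replicate 3. The litter block, which pairs the tissues, gave 7 calls at E4, adding Farsa and Nars, and lost no call. Hars in the TE was lost with no filter (adjusted p = 0.0756), and Wars at D10 with thinning (adjusted p = 0.0535). The other causes of lost calls were not tested. Depth limits Nars2, Cars, Mars2 and Sars2 most, with 179 to 251 counts over all libraries. Pair ratios gave 0 passing pairs in every alternative run, but with 5 against 5 libraries and 36 tests this says nothing about stability.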
